A study of Mus musculus with 2 samples.

Results

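The lysosomal gene set described here holds 46 genes for the proteases, hydrolases, membrane proteins and proton pump of the lysosome. The members were named by symbol: 10 proteases, 7 glycosidases, 2 lysozymes, 6 genes of lipid handling, 6 membrane proteins, 11 subunits of the vacuolar ATPase (V-ATPase), the reductase gene Ifi30 with the progranulin gene Grn, and the transcription factor genes Tfeb and Tfe3. All 46 were measured, of 12422 genes measured in all. Lysosomes are the acidic compartments in which cells digest proteins, sugars, lipids and whole organelles. Their enzymes work at low pH, which the V-ATPase maintains by pumping protons across the membrane. Macrophages are rich in lysosomes, since they digest what they engulf, and some lysosomal proteases of these cells also trim antigens for presentation. TFEB and TFE3 are transcription factors that bind a short promoter element shared by many lysosomal genes and raise lysosome production when nutrients are scarce.

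The cells were mouse bone marrow-derived macrophages, grown from marrow for 5 days with M-CSF supplied as CMG14-12 culture medium. One sample was labelled c-Maf-/-, without a working copy of Maf, and the other c-Maf+/-, with 1 copy left. Both received 100 ng/ml lipopolysaccharide (LPS), the bacterial product sensed by Toll-like receptor 4, for 5 h before RNA was taken. c-Maf, a DNA-binding protein of the leucine zipper kind, regulates genes in macrophages, and the comparison asks which transcripts differ between LPS-treated cells without it and those with 1 copy. Neither wild-type nor unstimulated cells were among the samples analysed here, so both groups share the LPS treatment. There was 1 one-colour array for each genotype, and the labels do not give the strain, the age, the part of Maf removed or how many animals were used. No test between genotypes was therefore possible, and every difference below is one between these 2 arrays.

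Values are processed spot signals as deposited, which are linear intensities, and log2 differences between arrays. A log2 difference is c-Maf-/- minus c-Maf+/-, after each array was scaled to its own 75th percentile, so a negative value means a lower level in c-Maf-/- cells. The error given with it comes from the scanner software's own error model and covers a spot's measurement only, not the spread between animals or cultures. That model uses a multiplicative error of 0.1, which is a setting and not a spread measured here. The error is thus about 0.20 for nearly every bright gene with 1 probe and about 0.14 for those with 2. Genes were counted past 3 sizes: 0.32 log2, which is a ratio of 5 to 4, then 1.5-fold and 2-fold. In bulk RNA, fewer cells of a type and less RNA per cell cannot be told apart. The share of non-control spots well above background was 44.9% for c-Maf-/- cells and 45.3% for c-Maf+/- cells, and 0 spots were saturated. Maf checked the labels: one of its probes (chr8:118227736-118227795 in mouse build mm9) read 12.6 in c-Maf-/- cells, not well above background, and 15101 in c-Maf+/- cells. The other Maf probe (chr8:118207273-118207332) had 5.96 in c-Maf-/- cells, again not well above background, and 541 in c-Maf+/- cells.

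As a set, the lysosomal genes sat slightly below 0. Their median log2 difference was -0.09, with 35 of the 46 (76.1%) below 0, against a median of -0.02 and 53.8% below 0 over all 12422 genes. The other 11 were above 0, against 46.2% of all genes. Among the 4867 genes with a signal of at least 1000 on both arrays, a range that held 43 of the members, the median was -0.04 and 59.6% were below 0. Those 43 members had a median of -0.11 with 34 below 0. Differences of the lysosomal genes were small. Past 0.32 log2 there were 7 members, 5 lower and 2 higher in c-Maf-/- cells, which is 15.2% of them, against 29.7% of all genes (16.2% lower and 13.5% higher). In the range of at least 1000 on both arrays, 14.1% of genes were lower by this much and 6.62% higher. One member, Ctsl, was past 1.5-fold, where 6.51% of all genes were lower and 5.37% higher, and 0 of 46 were past 2-fold, where 1.74% of all genes were lower and 1.42% higher. The SD of the differences was 0.23 over the 46 genes, 0.31 over the genes of at least 1000 and 0.41 over all.

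The 7 members past 0.32 log2 were Ctsl, Atp6v0a1, Lipa, Atp6v1d and Cd68 on the lower side and Lyz2 and Tfeb on the higher. The same 7 were the members whose difference was at least 2 times its error-model error. As that error depends mainly on the number of probes, this is another size cutoff and no further support for these genes. Another 8 members lay between 1 and 2 times the error, all of them lower in c-Maf-/- cells, so that 15 stood past 1 error in all. The direction for the set as a whole depended on the scaling. When the 8 spike-in RNA transcripts of the arrays set the scale, the differences of all genes moved up by 0.15. The median over all genes was then 0.12 and that of the members 0.05, with 18 of the 46 below 0. Relative to the all-gene median, the members' median was -0.07, which spike-in scaling cannot change, as it adds 1 value to every gene. It was -0.040 with quantile scaling, -0.049 with loess and -0.16 without the filter on dim probes. Without that filter the members' own median stayed at -0.09. The median of all genes, then 22615 with dim ones included, was 0.066, so the larger gap came from the other genes. Over the 9 alternative settings, 29 members kept their sign in every one that gave them a value, 18 below 0 and 11 above, and the 7 members past 0.32 log2 were among them. As 8 of the 9 alternatives raised the median of all genes, the kept sign of the members above 0, Lyz2 and Tfeb among them, is no sign of stability. Some alternatives could not disagree for members below 0 either. Where a member has 1 probe on the array, taking the brightest probe or dropping the dim filter returns the main value. Centring and spike-in scaling only add 1 value to every gene. A kept sign is thus a weak check.

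**Figure D1:**
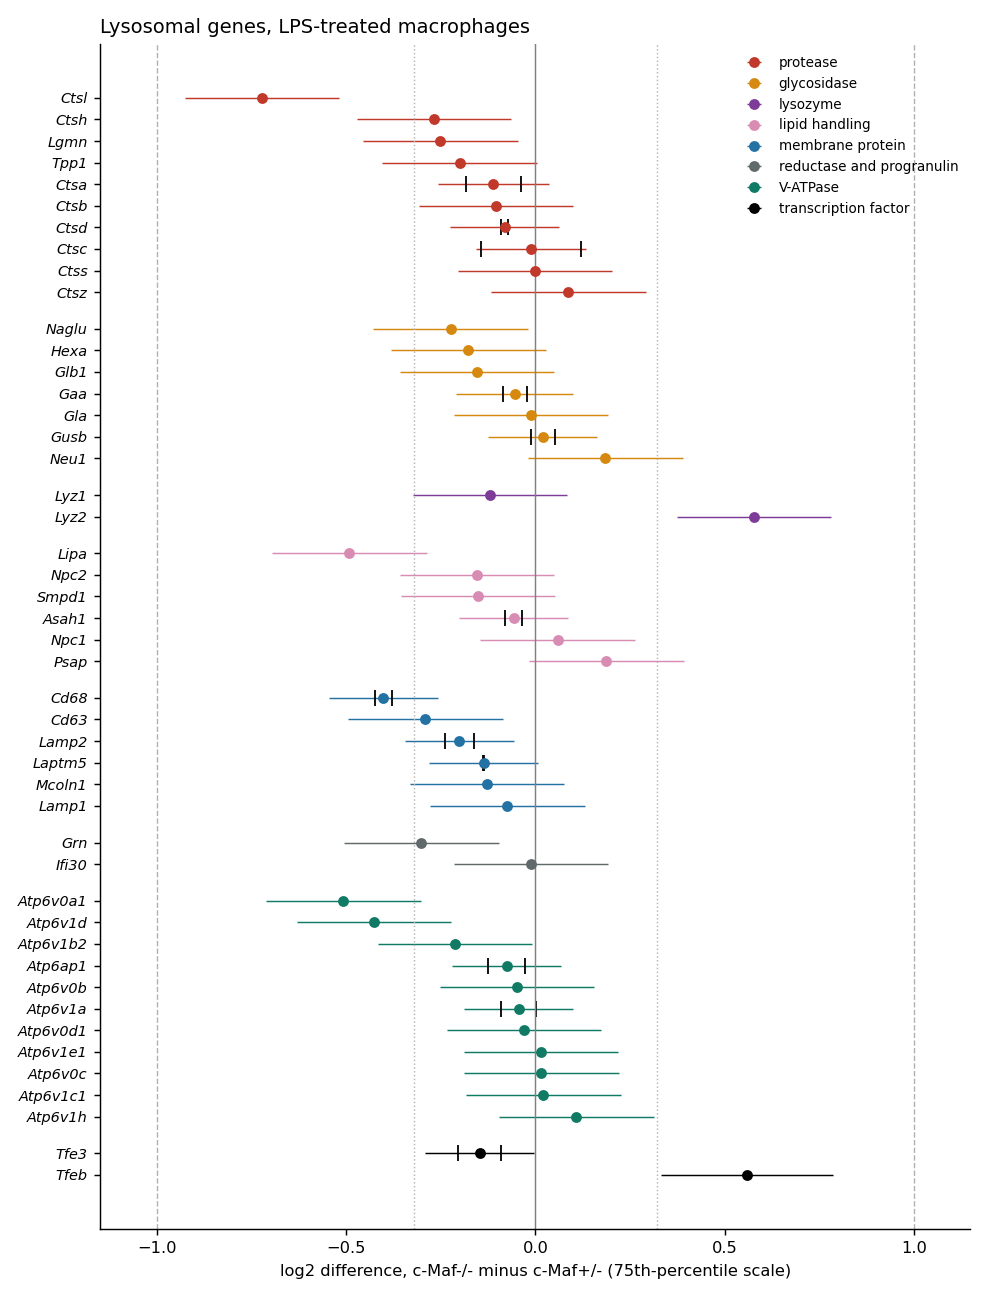
Log2 difference of each of the 46 lysosomal genes (c-Maf-/- minus c-Maf+/-, horizontal axis), grouped and coloured by class; points are gene values, bars the error-model error and black ticks the separate probes of genes with at least 2. Dotted lines mark 0.32 log2 and dashed lines 2-fold; Ctsl (-0.72) lies farthest left, Lyz2 (0.58) and Tfeb (0.56) farthest right, and most other genes lie between the dotted lines.

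**Figure D2:**
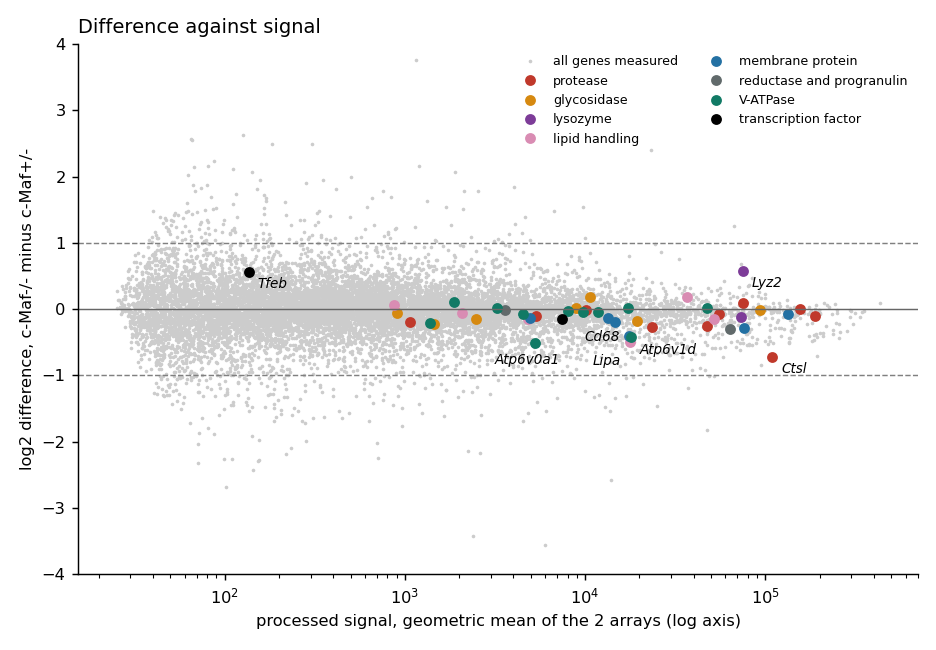
Log2 difference (c-Maf-/- minus c-Maf+/-, vertical axis) against the geometric mean of the processed signals of the 2 arrays (horizontal log axis); grey dots are all 12422 genes and coloured points the lysosomal genes by class, with dashed lines at 2-fold. The 7 labelled genes are those past 0.32 log2, and all but Tfeb of these have signals above 1000 on both arrays.

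The transcription factor genes of the set differed in sign. Tfeb, the main activator of lysosomal genes, had a signal of 167 in c-Maf-/- cells and 111 in c-Maf+/- cells, 1.47-fold higher without c-Maf (log2 0.56, error 0.23, 1 probe at chr17:47929089-47929148, mm9). It was a dim gene on both arrays, and over the alternative settings its difference ran between 0.34 and 0.71. Tfe3, its close relative, had signals of 7123 in c-Maf-/- cells and 7751 in c-Maf+/- cells, a log2 difference of -0.15 with an error of 0.14 over 2 probes (-0.09 and -0.20). So Tfeb was higher beyond its measurement error, and Tfe3 lay at about 1 error below 0.

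Among the other genes of the TFE family and of nutrient sensing at the lysosome, 17 of 19 were measured (Rragb and Rragd were not well above background on either array). Their median was -0.08, with 10 below 0 and 7 above (58.8% below, against 53.8% of all genes). Past 0.32 log2 there was 1 gene, which is 5.88%, against 29.7% of all genes. That gene was Tfec, a TFE family member of macrophages, with 867 in c-Maf-/- cells and 1081 in c-Maf+/- cells (-0.34). Mitf, the melanocyte and osteoclast factor of the family, had 10820 in c-Maf-/- cells and 12734 in c-Maf+/- cells (-0.26). Rptor, which encodes the mTORC1 subunit raptor, had 2296 in c-Maf-/- cells and 2654 in c-Maf+/- cells (-0.23). The family member genes Mitf, Tfec and Tfe3 were thus below 0 and Tfeb above it.

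RefSeq promoter windows (build GRCm38.p6, 250 bases before to 50 after a transcript start) were found for 39 of the 46 members, 47 windows in all. TFEB and TFE3 are known to bind the E-box CACGTG, often in the longer form GTCACGTG. Searched on both strands, CACGTG was in 29.8% of the members' windows, in 14 genes, against 7.15% of all 32851 windows of that length. GTCACGTG, which contains it, was in 23.4% of the members' windows, in 11 genes, and in 2.25% of all windows. Its full palindrome was in 0 of the members' windows and 0.326% of all. The 14 genes with CACGTG (Atp6v0b, Atp6v0d1, Atp6v1a, Ctsa, Ctsd, Ctsl, Gaa, Gla, Glb1, Ifi30, Lamp1, Lgmn, Mcoln1 and Naglu) had log2 differences between -0.72 and -0.01, with a median of -0.08. All 14 were below 0 on the 75th-percentile scale, as were 76.1% of the members and 53.8% of all genes. Of the 14, however, 6 were above 0 with quantile scaling, 3 with loess and 10 with spike-in scaling. The other matched members had a median of -0.14, so the median was the lower one in members without the match. Windows that hold it are shown with each CACGTG in capitals: that of Mcoln1 (chr8:3500269-3500568, plus strand), with 2 matches, that of Lamp1 (chr8:13158911-13159210, plus strand), with 4, and that of Ctsl (chr13:64370471-64370770, minus strand), the member with the largest difference, with 1.
Mcoln1: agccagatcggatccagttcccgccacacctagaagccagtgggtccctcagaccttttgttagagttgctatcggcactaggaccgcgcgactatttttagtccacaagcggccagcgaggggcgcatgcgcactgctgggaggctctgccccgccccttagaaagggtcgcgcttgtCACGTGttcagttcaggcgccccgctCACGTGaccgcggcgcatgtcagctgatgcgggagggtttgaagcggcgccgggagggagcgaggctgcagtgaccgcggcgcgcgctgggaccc
Lamp1: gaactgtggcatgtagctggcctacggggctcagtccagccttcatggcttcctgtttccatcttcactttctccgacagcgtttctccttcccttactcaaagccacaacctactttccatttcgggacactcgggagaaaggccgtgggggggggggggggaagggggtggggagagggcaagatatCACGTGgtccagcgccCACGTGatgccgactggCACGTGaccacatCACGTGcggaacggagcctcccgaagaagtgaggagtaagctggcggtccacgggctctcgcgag
Ctsl: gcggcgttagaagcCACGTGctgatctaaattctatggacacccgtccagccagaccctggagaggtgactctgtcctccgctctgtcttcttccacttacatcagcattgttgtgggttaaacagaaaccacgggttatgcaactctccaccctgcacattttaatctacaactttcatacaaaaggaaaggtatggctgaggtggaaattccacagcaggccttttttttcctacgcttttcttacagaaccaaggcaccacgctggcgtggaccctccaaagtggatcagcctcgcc

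Large Maf proteins are known to bind the Maf recognition element (MARE), a palindrome with forms named T-MARE and C-MARE. Neither form was in any of the 47 members' windows, and each was in 0.00609% of all windows. TGCTGA, one arm of this palindrome, was in 23.4% of the members' windows and 19.5% of all. TGAGTCA, the core that AP-1 and Maf dimers share, was in 8.51% of the members' windows (those of Cd68, Glb1, Neu1 and Psap) and in 5.20% of all. Of these genes Cd68 was past 0.32 log2 lower (-0.40) and Glb1 was at -0.15, while Neu1 (0.19) and Psap (0.19) were above 0. The 4 genes had a median of 0.015, and the matched members without TGAGTCA one of -0.11. The window of Cd68 (chr11:69666121-69666420, minus strand, GRCm38.p6) is shown with both matches of TGAGTCA in capitals. These are matches of letters within 300 bases and say nothing of binding.
Cd68: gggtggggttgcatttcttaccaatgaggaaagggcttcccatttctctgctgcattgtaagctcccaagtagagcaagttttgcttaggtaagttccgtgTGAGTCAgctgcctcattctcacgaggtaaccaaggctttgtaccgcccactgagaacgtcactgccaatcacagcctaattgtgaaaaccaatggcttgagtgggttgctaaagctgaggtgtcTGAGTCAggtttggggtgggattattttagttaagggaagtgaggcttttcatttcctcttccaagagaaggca

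Of the 10 protease genes, 9 were below 0 in c-Maf-/- cells relative to c-Maf+/- cells and the median was -0.11. Over all genes 53.8% were below 0, and 59.6% of those with a signal of at least 1000 on both arrays. Ctsl stood apart from the other proteases. It encodes cathepsin L, a cysteine endopeptidase that degrades proteins in lysosomes and takes part in processing antigens. Its signal was 85520 in c-Maf-/- cells and 138695 in c-Maf+/- cells, 1.65-fold lower (log2 -0.72, error 0.20, 1 probe at chr13:64465287-64465346, mm9). That is 3.54 times its error, and the value stayed between -0.74 and -0.58 over the alternative settings. The 6 cysteine cathepsins had a median of -0.06, and without Ctsl the 9 other proteases ran between -0.27 and 0.09 with a median of -0.10.

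The remaining cysteine cathepsins differed by less than 0.32 log2. Ctsh, an aminopeptidase, had 21678 in c-Maf-/- cells and 25638 in c-Maf+/- cells (-0.27, error 0.20). Ctsb, which encodes the abundant cathepsin B, had 183545 in c-Maf-/- cells and 193911 in c-Maf+/- cells (-0.10). Ctss, the cathepsin that cleaves the invariant chain in antigen-presenting cells, had 156633 in c-Maf-/- cells and 154073 in c-Maf+/- cells, which after scaling was a difference of -0.0019. The values of Ctsb and Ctss were within their errors of 0, and that of Ctsh was 1.31 times its error. Ctsc encodes dipeptidyl peptidase 1, which activates granule serine proteases, and its 2 probes disagreed in sign. One had 48089 in c-Maf-/- cells and 43446 in c-Maf+/- cells (0.12), and the other 2133 in c-Maf-/- cells and 2316 in c-Maf+/- cells (-0.14). Ctsz, a carboxypeptidase, was the protease above 0, with 77846 in c-Maf-/- cells and 71983 in c-Maf+/- cells (0.09, error 0.20).

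Proteases of other families differed by less than 0.32 log2. Ctsd, the aspartic protease cathepsin D, had 54217 in c-Maf-/- cells and 56355 in c-Maf+/- cells (-0.08), with probe values of -0.09 and -0.07. Lgmn, which encodes the asparaginyl endopeptidase legumain that matures several cathepsins, had 44074 in c-Maf-/- cells and 51532 in c-Maf+/- cells (-0.25, error 0.20). Ctsa encodes a serine carboxypeptidase that also protects neuraminidase 1 and beta-galactosidase. At one probe it had 101294 in c-Maf-/- cells and 113086 in c-Maf+/- cells (-0.18), and at the other 262 in c-Maf-/- cells and 265 in c-Maf+/- cells (-0.04). Tpp1, tripeptidyl peptidase 1, had 1010 in c-Maf-/- cells and 1140 in c-Maf+/- cells (-0.20, error 0.20). Lgmn was past 1 error below 0, Tpp1 just short of it, and Ctsd and Ctsa within it.

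Proteases outside the set, and the proteins that inhibit them, showed larger single differences. The list of 12 other cathepsins and lysosomal proteases also held the thioesterase genes Ppt1 and Ppt2. Of these 12 genes 10 were measured (Ctse was detected on neither array and Ctso on 1 array). There were 8 below 0 and 2 above (80% below, against 53.8% of all genes), with a median of -0.19. The 2 past 0.32 log2 lower and 1 higher are 30% of those measured, against 29.7% of all genes. Ctsg, a serine protease of neutrophil granules, had 439 in c-Maf-/- cells and 784 in c-Maf+/- cells (-0.86). Ctsw, a cathepsin of lymphocytes, was dim at 62.7 in c-Maf-/- cells and 79.6 in c-Maf+/- cells (-0.37). Ppt2, a thioesterase, was higher at 3244 in c-Maf-/- cells and 2142 in c-Maf+/- cells (0.57). Of 9 cystatins, stefins and serpins that inhibit such proteases, 7 were measured (Cst6 and Stfa1 were not well above background), 5 below 0 and 2 above, with a median of -0.13. In this small list 3 were past 0.32 log2 lower and 2 higher, which is 71.4% of the 7, against 29.7% of all genes. Those below 0 are also 71.4%, against 53.8% of all genes. Serpinb1a, an inhibitor of neutrophil serine proteases, had 226 in c-Maf-/- cells and 503 in c-Maf+/- cells (-1.18), past 2-fold. Serpinb6a, an inhibitor of cathepsin G, had 29848 in c-Maf-/- cells and 44010 in c-Maf+/- cells (-0.59), and Cst7, which encodes cystatin F, had a difference of -0.51. On the other side Stfa2 had 93.6 in c-Maf-/- cells and 52.7 in c-Maf+/- cells (0.80) and Stfa3 a difference of 0.35. The stefin A genes of the mouse are close copies of each other, so which copies these probes read is uncertain.

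Most neutrophil markers were lower in c-Maf-/- cells, as Serpinb1a was. Of 12 such markers, Ctsg itself among them, 10 were below 0, with a median of -0.75, and 5 were past 2-fold lower. Over all genes 53.8% were below 0 and 1.74% past 2-fold lower. The summed signal of the 12 markers was 149425 in c-Maf-/- cells and 172290 in c-Maf+/- cells. S100a9 had 34671 in c-Maf-/- cells and 68498 in c-Maf+/- cells (-1.01), and Ngp 525 in c-Maf-/- cells and 1412 in c-Maf+/- cells (-1.45), while Lcn2 was higher (0.36) and Mmp8 too (0.46). Elane was at -0.03. Their part in the differences of the lysosomal genes was not tested.

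The glycosidases, which remove sugars from glycoproteins, glycolipids and glycosaminoglycans, differed little, with 0 of 7 past 0.32 log2. Their median was -0.05, with 5 below 0 and 2 above (71.4% below, against 53.8% of all genes). Naglu, which removes N-acetylglucosamine from heparan sulfate, had 1360 in c-Maf-/- cells and 1561 in c-Maf+/- cells (-0.22, error 0.20). Hexa, the alpha subunit of beta-hexosaminidase, had 18443 in c-Maf-/- cells and 20482 in c-Maf+/- cells (-0.18). Glb1, beta-galactosidase, had 2358 in c-Maf-/- cells and 2579 in c-Maf+/- cells (-0.15). Naglu was at 1.10 times its error, Hexa and Glb1 within theirs. At the other end Neu1, the sialidase neuraminidase 1, had 11506 in c-Maf-/- cells and 9942 in c-Maf+/- cells (0.19, error 0.20). The range of the class was therefore -0.22 to 0.19.

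The other glycosidase genes lay close to 0. Gla, alpha-galactosidase A, had 94436 in c-Maf-/- cells and 93539 in c-Maf+/- cells (-0.01). Gaa, the acid alpha-glucosidase that breaks down glycogen, had 8147 in c-Maf-/- cells and 8499 in c-Maf+/- cells at one probe (-0.09) and 97.1 in c-Maf-/- cells and 97 in c-Maf+/- cells at a dim one (-0.02), while a further probe was not well above background on either array and was not used. Gusb, beta-glucuronidase, was also the best-measured member, since one of its probes was printed on 10 spots. These gave 14025 in c-Maf-/- cells and 13305 in c-Maf+/- cells, a difference of 0.05 with an SD of 0.02 over the spots. Its other probe gave -0.01, and the gene's value was 0.02. Repeat spots of Gusb thus spread far less than the error-model error of 0.20 for a single probe.

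Hydrolases outside the set gave 3 differences past 0.32 log2. Of 27 further lysosomal hydrolases and their cofactors 26 were measured (Galc on 1 array), 19 below 0 and 7 above, with a median of -0.10. Below 0 were thus 73.1% of those measured, against 53.8% of all genes. Past 0.32 log2 there were 2 lower and 1 higher, which is 11.5%, against 29.7% of all genes. Acp5, which encodes the tartrate-resistant acid phosphatase of osteoclasts and macrophages, had 7107 in c-Maf-/- cells and 4607 in c-Maf+/- cells (0.60). Sgsh, a sulfamidase of heparan sulfate breakdown, had 6827 in c-Maf-/- cells and 9132 in c-Maf+/- cells (-0.45), and Acp2, lysosomal acid phosphatase, 899 in c-Maf-/- cells and 1153 in c-Maf+/- cells (-0.38).

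The mouse has a pair of neighbouring lysozyme genes, and they differed. Lysozyme cleaves the peptidoglycan of bacterial cell walls; Lyz2 is known as the lysozyme of myeloid cells and Lyz1 as that of Paneth cells in the gut. Lyz2 had a signal of 92590 in c-Maf-/- cells and 60919 in c-Maf+/- cells, 1.49-fold higher (log2 0.58, error 0.20, 1 probe at chr10:116719175-116719234, mm9). Lyz1 had 71194 in c-Maf-/- cells and 76011 in c-Maf+/- cells (-0.12, error 0.20, 1 probe at chr10:116724862-116724921, mm9). Lyz2 was higher at 2.83 times its error, and Lyz1 lay within its error of 0. The range over the alternative settings was 0.55 to 0.72 for Lyz2 and -0.13 to 0.03 for Lyz1. The probes are unlike each other: over their 60 bases the longest run they share is 6. Neither was compared with the transcript of the other gene, so whether each reads its own gene alone was not tested. The first 30 bases of both probes are shown as deposited.
Lyz2 probe: aacgttgtgagtttgccagaactctgaaaa
Lyz1 probe: ccaataaccacaggagcaaatctaatctca

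The start regions of both lysozyme genes are much more alike. Aligned over 298 bases, the RefSeq promoter windows of Lyz2 (chr10:117282223-117282522, minus strand, GRCm38.p6) and Lyz1 (chr10:117292819-117293118, minus strand) have 249 identical bases and 49 mismatches, with 2 bases of each in gaps. Capitals mark the bases of each window that differ from the other; most lie in the upstream part, and the stretch before the start is nearly free of them. The differing signals thus came from dissimilar probes, named for genes with similar windows.
Lyz2: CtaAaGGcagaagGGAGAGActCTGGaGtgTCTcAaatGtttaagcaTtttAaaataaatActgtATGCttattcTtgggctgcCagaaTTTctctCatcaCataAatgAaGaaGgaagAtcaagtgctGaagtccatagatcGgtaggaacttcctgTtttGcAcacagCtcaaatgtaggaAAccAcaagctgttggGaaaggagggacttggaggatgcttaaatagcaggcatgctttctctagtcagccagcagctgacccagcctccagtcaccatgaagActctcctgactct
Lyz1: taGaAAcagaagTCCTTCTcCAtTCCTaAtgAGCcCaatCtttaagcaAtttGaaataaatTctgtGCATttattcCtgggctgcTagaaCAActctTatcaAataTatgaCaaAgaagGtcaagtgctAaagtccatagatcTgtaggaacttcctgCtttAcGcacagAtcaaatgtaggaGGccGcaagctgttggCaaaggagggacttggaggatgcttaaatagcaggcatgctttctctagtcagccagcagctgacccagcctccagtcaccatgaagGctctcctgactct

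Of the 6 genes of lipid handling 4 were below 0 and 2 above (66.7% below, against 53.8% of all genes), with a median of -0.10. Lipa, which encodes the acid lipase that frees cholesterol and fatty acids from engulfed lipoproteins, had 15080 in c-Maf-/- cells and 20830 in c-Maf+/- cells. It was 1.41-fold lower (log2 -0.49, error 0.20, 1 probe at chr19:34567717-34567776, mm9), and between -0.50 and -0.35 over the alternative settings. The remaining genes were within 1 error of 0. Npc2, a cholesterol carrier of the lysosomal lumen, had 49385 in c-Maf-/- cells and 54022 in c-Maf+/- cells (-0.16). Smpd1, acid sphingomyelinase, had 4587 in c-Maf-/- cells and 5005 in c-Maf+/- cells (-0.15), and Asah1, acid ceramidase, 2058 in c-Maf-/- cells and 2104 in c-Maf+/- cells over 2 probes (-0.06). Npc1, the membrane transporter that receives cholesterol from NPC2, had 891 in c-Maf-/- cells and 840 in c-Maf+/- cells (0.06). Psap, the precursor of the saposins that help enzymes reach their lipids, had 39452 in c-Maf-/- cells and 34024 in c-Maf+/- cells (0.19, error 0.20).

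All 6 membrane protein genes were below 0, with a median of -0.17 and a range of -0.40 to -0.07. Over all genes 53.8% were below 0, and 59.6% of those with a signal of at least 1000 on both arrays. Cd68, a heavily glycosylated protein of macrophage lysosomes and endosomes that is used as a macrophage marker, was the farthest from 0. At one probe (chr11:69477775-69477834, mm9) it had 57309 in c-Maf-/- cells and 73188 in c-Maf+/- cells (-0.38). At the other (chr11:69478979-69479038) it had 4133 in c-Maf-/- cells and 5451 in c-Maf+/- cells (-0.43). Both probes thus gave a lower level in c-Maf-/- cells, and together they made Cd68 1.32-fold lower (log2 -0.40, error 0.14). Cd63, a tetraspanin of late endosomes and lysosomes, had 69178 in c-Maf-/- cells and 83125 in c-Maf+/- cells (-0.29, error 0.20). Lamp2, a main membrane glycoprotein also needed for chaperone-mediated autophagy, was measured by 2 probes annotated to different RefSeq transcripts. The differences at these were -0.16 and -0.24, and the mean signals 13779 in c-Maf-/- cells and 15558 in c-Maf+/- cells. Cd63 and Lamp2 were past 1 error and within 0.32 log2.

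Laptm5, a membrane protein of immune-cell lysosomes, had 12875 in c-Maf-/- cells and 13909 in c-Maf+/- cells, with -0.14 at both of its probes. Mcoln1, the calcium channel TRPML1, had 4796 in c-Maf-/- cells and 5148 in c-Maf+/- cells at its used probe (-0.13). Lamp1, the other main membrane glycoprotein, had 131237 in c-Maf-/- cells and 135715 in c-Maf+/- cells (-0.07). These last 3 were within 1 error of 0, and under spike-in scaling each turned above 0, to at most 0.07. Ifi30, a thiol reductase that opens disulfide bonds of antigens, had 3600 in c-Maf-/- cells and 3567 in c-Maf+/- cells (-0.01). Grn, which encodes progranulin, a secreted protein that is cut into granulins in lysosomes, had 58123 in c-Maf-/- cells and 70353 in c-Maf+/- cells (-0.30, error 0.20). Grn was at 1.48 times its error and just within 0.32 log2.

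Of 26 lysosomal membrane protein genes outside the set 24 were measured (Lamp5 on neither array and Tpcn2 on 1), 20 below 0 and 4 above, with a median of -0.15. Below 0 were thus 83.3% of those measured, against 53.8% of all genes. Past 0.32 log2 there were 4 lower and 2 higher, which is 25%, against 29.7% of all genes. The lower ones are 16.7%, against 16.2% of all genes. Mcoln3, a calcium channel related to Mcoln1, was dim at 36.2 in c-Maf-/- cells and 78.2 in c-Maf+/- cells (-1.14). Cd164, a sialomucin, had 13261 in c-Maf-/- cells and 19205 in c-Maf+/- cells (-0.56), and Tmem175, a lysosomal potassium channel, 673 in c-Maf-/- cells and 910 in c-Maf+/- cells (-0.46). The other lower gene was Cln3 (-0.42), and the higher ones were Lamp3 (0.40) and the cystine exporter gene Ctns (0.35). Under spike-in scaling the median was -0.02 for the 6 members and 0.0013 for these 24 genes, where that of all genes was 0.12.

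**Figure D3:**
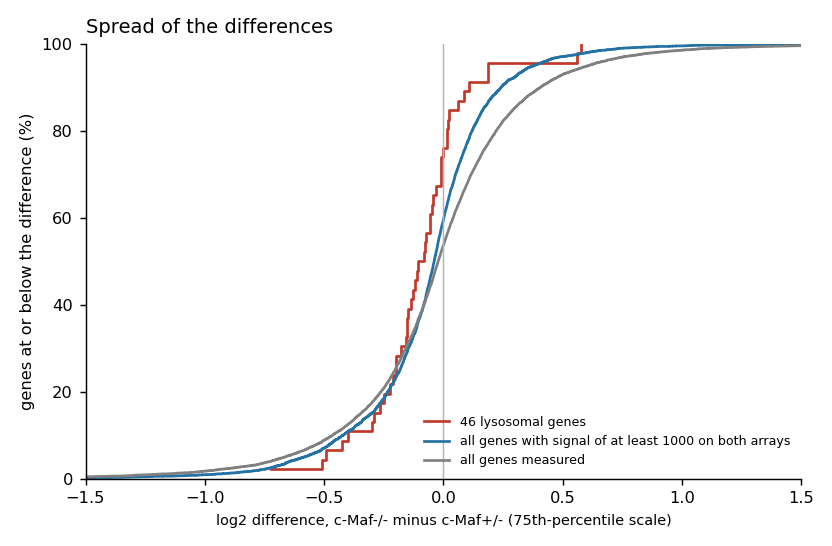
Percentage of genes at or below each log2 difference (c-Maf-/- minus c-Maf+/-) for the 46 lysosomal genes (red), the 4867 genes with a signal of at least 1000 on both arrays (blue) and all 12422 genes (grey). The red line passes 0 at 76.1%, the blue at 59.6% and the grey at 53.8%, and the red line spans the narrowest range, -0.72 to 0.58.

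The V-ATPase has a Vo domain in the membrane, which carries protons, and a V1 domain in the cytosol, which hydrolyses ATP. Its 11 subunit genes in the set had a median of -0.04, with 7 below 0 and 4 above, and 2 of them, 1 of each domain, were past 0.32 log2 lower. Those 2 are 18.2% of the 11, close to the 16.2% of all genes lower by this size. Below 0 were 63.6% of the 11, against 53.8% of all genes. The median of the 11 was 0.012 with quantile scaling, -0.0041 with loess and 0.10 with spike-in scaling. Atp6v0a1 encodes an isoform of subunit a, the part of Vo that forms the proton path and directs the pump to its membrane. It had 4438 in c-Maf-/- cells and 6199 in c-Maf+/- cells, 1.42-fold lower (log2 -0.51, error 0.20, probe at chr11:100924969-100925028, mm9). Another Atp6v0a1 probe (chr11:100910359-100910418) was near background, with 18.5 in c-Maf-/- cells and 26.4 in c-Maf+/- cells, and was not used. Atp6v1d encodes the central rotor subunit D of V1 and had 15600.5 in c-Maf-/- cells and 20589 in c-Maf+/- cells, 1.34-fold lower (log2 -0.43, error 0.20, 1 probe at chr12:79943993-79944052, mm9). Both were beyond 2 times their error, and over the alternative settings Atp6v0a1 stayed between -0.52 and -0.36 and Atp6v1d between -0.45 and -0.28.

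Without these 2 genes the pump subunits had a median of -0.03 and a range of -0.21 to 0.11. In the Vo domain Atp6v0c, the main proteolipid of the rotating ring, had 47894 in c-Maf-/- cells and 46536 in c-Maf+/- cells (0.02). Atp6v0b, the other ring proteolipid, had 11625 in c-Maf-/- cells and 11815 in c-Maf+/- cells (-0.05). Atp6v0d1, which couples the ring to the rotor, had 8065 in c-Maf-/- cells and 8093 in c-Maf+/- cells (-0.03). All 3 were within their error of 0.20. In V1, Atp6v1a, the catalytic subunit, had 9625 in c-Maf-/- cells and 9750 in c-Maf+/- cells over 2 probes (-0.04). These probes differed in sign, at 0.0018 and -0.09. Atp6v1b2, the partner of Atp6v1a in the hexamer, had 1287 in c-Maf-/- cells and 1465 in c-Maf+/- cells (-0.21, error 0.20). Of the stator subunits, Atp6v1c1 had 3282 in c-Maf-/- cells and 3177 in c-Maf+/- cells (0.02), and Atp6v1e1 17505 in c-Maf-/- cells and 17013 in c-Maf+/- cells (0.02). Atp6v1b2 was thus 1.04 times its error below 0 and Atp6v1a, Atp6v1c1 and Atp6v1e1 were nearer to 0. Atp6v1h, a regulatory subunit, had 1957 in c-Maf-/- cells and 1783 in c-Maf+/- cells (0.11), and the accessory protein gene Atp6ap1 4456 in c-Maf-/- cells and 4613 in c-Maf+/- cells (-0.08).

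Subunit isoforms outside the set showed one further larger difference. Of 15 such genes 9 were measured, 7 below 0 and 2 above, with a median of -0.05 and 1 past 0.32 log2. That 1 is 11.1% of the 9, against 29.7% of all genes. Those below 0 are 77.8%, against 53.8% of all genes. Atp6v0a4, Atp6v0e2, Atp6v1b1, Atp6v1c2, Atp6v1g3 and Atp6ap1l were not well above background on either array. Atp6v0d2, the isoform of subunit d known from osteoclasts, had 92 in c-Maf-/- cells and 165 in c-Maf+/- cells (-0.87, error 0.23). Atp6v0e had 48828 in c-Maf-/- cells and 56497 in c-Maf+/- cells (-0.24) and Atp6v1f 33480 in c-Maf-/- cells and 37055 in c-Maf+/- cells (-0.17). The other isoforms of subunit a that were measured lay near 0: Atp6v0a2 had 1389 in c-Maf-/- cells and 1395 in c-Maf+/- cells (-0.03), and Tcirg1, which encodes the a3 isoform of osteoclasts and macrophages, 21593 in c-Maf-/- cells and 21547 in c-Maf+/- cells (-0.02). Among the isoforms of subunit a, Atp6v0a1 was thus the one past 0.32 log2, and for subunit d it was Atp6v0d2.

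**Figure D4:**
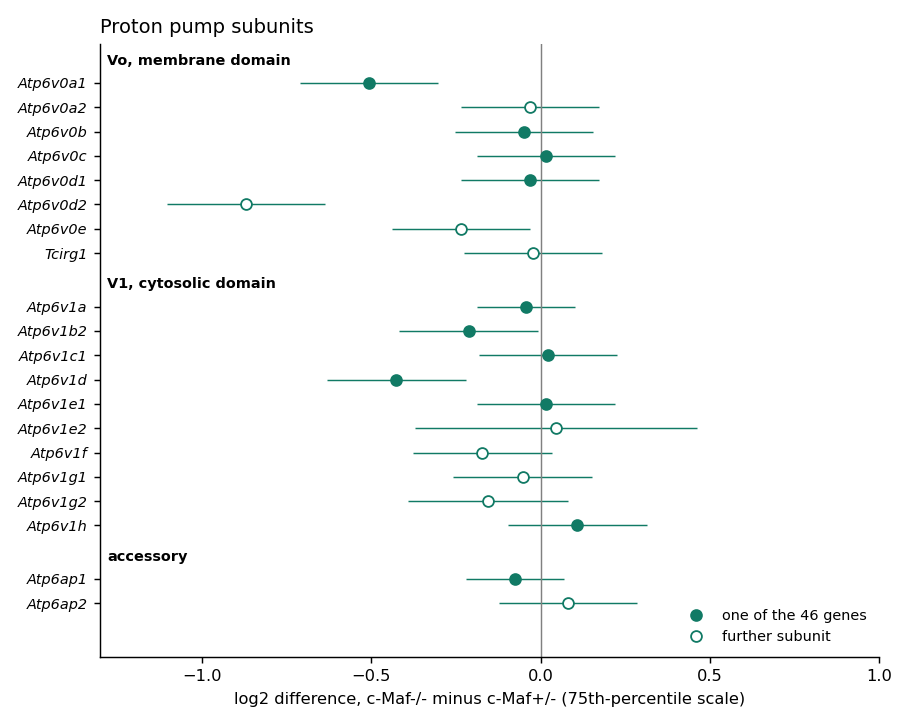
Log2 difference (c-Maf-/- minus c-Maf+/-, horizontal axis) of each measured V-ATPase subunit by domain; filled points are the 11 genes of the set, open points the 9 further subunits, and bars the error-model error. Atp6v0d2 (-0.87), Atp6v0a1 (-0.51) and Atp6v1d (-0.43) lie apart on the left, and the remaining subunits lie between -0.24 and 0.11.

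Atp6v0d2 and Acp5 also belong to the osteoclast markers, as osteoclasts grow from the same precursors and carry much V-ATPase. Of 10 such markers 9 were measured, with a median of -0.42 and 6 of them below 0, against 53.8% of all genes. Their summed signal was 14673 in c-Maf-/- cells and 17020 in c-Maf+/- cells. Car2 had 69.5 in c-Maf-/- cells and 335 in c-Maf+/- cells (-2.29), while Ctsk, a cathepsin of osteoclasts, had 973 in c-Maf-/- cells and 809 in c-Maf+/- cells (0.24) and Calcr was well above background on 1 array. The part of these markers in the pump subunits' values was not tested.

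The macrophage markers Csf1r, Adgre1, Cd14, Itgam, Fcgr1, Mertk, Aif1 and Cd68 were all well above background on both arrays, which goes with the labelled cell type. Cd68 is itself one of the 46 genes. Their summed signal was 187159 in c-Maf-/- cells and 185269 in c-Maf+/- cells. However, 6 of the 8 were below 0, against 53.8% of all genes, and the median of the 8 was -0.40. The largest difference among them was that of Mertk, a receptor for engulfing dead cells, with 73.5 in c-Maf-/- cells and 271 in c-Maf+/- cells (-1.91). It was followed by Aif1 (-0.61) and the Fc receptor gene Fcgr1 (-0.58). Csf1r, the M-CSF receptor gene, had 12560 in c-Maf-/- cells and 12615 in c-Maf+/- cells (-0.03). Adgre1, which encodes F4/80, had 25509 in c-Maf-/- cells and 32989 in c-Maf+/- cells (-0.40), close to the value of Cd68, and the LPS co-receptor gene Cd14 had 100111 in c-Maf-/- cells and 71344 in c-Maf+/- cells (0.46). Among the other markers, 6 of 8 measured for dendritic cells were below 0 (median -0.75), 5 of 6 for erythroid cells and megakaryocytes above (median 0.75), and 5 of 6 for stroma and endothelium below (median -0.36). Over all genes 53.8% were below 0 and 46.2% above. Summed signals, mostly those of Siglech (0.06) and Pf4 (-0.07), went against the first 2 medians. They were 46576 in c-Maf-/- cells and 44737 in c-Maf+/- cells for dendritic cells. For erythroid cells and megakaryocytes they were 57579 in c-Maf-/- cells and 58851 in c-Maf+/- cells. Most of the latter's raised markers were dim, such as Hba-a1 with 55.4 in c-Maf-/- cells and 30.7 in c-Maf+/- cells. Markers of B and T cells were measured for 5 of 9, with a median of -0.11. Among these Lck had 810 in c-Maf-/- cells and 1530 in c-Maf+/- cells (-0.94), Cd4 1516 in c-Maf-/- cells and 1609 in c-Maf+/- cells (-0.11) and Cd3e 1115 in c-Maf-/- cells and 959 in c-Maf+/- cells (0.19). Ms4a1, Cd3g and Cd8a were not well above background on either array. Markers of mast cells and basophils were measured for 2 of 6, with a median of -0.17.

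Lysosomal enzymes reach the lysosome through receptors and coats that sort them from the Golgi, and genes of this machinery lay on both sides of 0. All 24 genes listed for it were measured, 15 below 0 and 9 above, with a median of -0.04, and 4 were past 0.32 log2 lower and 2 higher. Those past this size are 25% of the 24, against 29.7% of all genes. Those below 0 are 62.5%, against 53.8% of all genes. Igf2r, the large mannose 6-phosphate receptor, had 1240 in c-Maf-/- cells and 881 in c-Maf+/- cells (0.47). Ap1b1, a subunit of the AP-1 clathrin adaptor, had 6794 in c-Maf-/- cells and 8964 in c-Maf+/- cells (-0.43), and Nagpa, the enzyme that uncovers the mannose 6-phosphate tag, 2331 in c-Maf-/- cells and 3034 in c-Maf+/- cells (-0.41). The other genes past 0.32 log2 were Gga2 (-0.36), Vps39 (-0.34) and Hps6 (0.39).

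Autophagy delivers cytoplasm to lysosomes and shares TFEB as a regulator. All 21 genes of this list were measured, 11 below 0 and 10 above, with 2 past 0.32 log2 lower and 1 higher. Those past this size are 14.3% of the 21, against 29.7% of all genes. Those below 0 are 52.4%, against 53.8% of all genes. The median of the list was -0.07, but 0.0074 with the normexp correction and -0.014 where no background was subtracted. Atg16l1, a component of the complex that attaches LC3 to membranes, had 2704 in c-Maf-/- cells and 4561 in c-Maf+/- cells (-0.78). Optn, an autophagy receptor, had 251 in c-Maf-/- cells and 383 in c-Maf+/- cells (-0.64), and Atg9a, which encodes a lipid scramblase of early autophagosomes, 380 in c-Maf-/- cells and 277 in c-Maf+/- cells (0.43). Over the 138 measured genes of the 8 related lists together, the median was -0.11, with 95 below 0 and 43 above, 19 past 0.32 log2 lower and 9 higher, and 2 past 2-fold lower and 0 higher. Those 28 are 20.3% of the related genes, against 29.7% of all genes, and the 19 lower ones 13.8%, against 16.2%, so such sizes were no more common than over all genes. Below 0 were 68.8% of the related genes, against 53.8% of all genes.

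The medians of the larger classes spanned 0.12 log2. The V-ATPase was at -0.04, the glycosidases at -0.05, lipid handling at -0.10, the proteases at -0.11 and the membrane proteins at -0.17. The membrane proteins were 0.12 below the V-ATPase, and the proteases 0.05 below the glycosidases and 0.06 below the V-ATPase. These gaps have no test, and the ranges of the classes overlapped: each of the 4 classes other than the glycosidases held 1 or 2 genes past 0.32 log2 lower beside genes near 0. The order of the proteases and lipid handling changed with the scaling, while the membrane proteins had the lowest median in the main setting and under the 6 other background corrections and scalings. Relative to the median of all genes, the class medians were -0.15 for membrane proteins, -0.09 for proteases, -0.08 for lipid handling, -0.03 for glycosidases and -0.02 for the V-ATPase, on the 75th-percentile scale. Over the alternatives these relative medians ran between -0.25 and -0.11 for membrane proteins, -0.17 and -0.063 for proteases, -0.17 and -0.039 for lipid handling, -0.078 and 0.00026 for glycosidases and -0.11 and -0.00098 for the V-ATPase. The lower end of each was without the filter on dim probes, where all genes had a median of 0.066. Spike-in scaling, which adds 1 value to every gene, cannot change them.

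**Figure D5:**
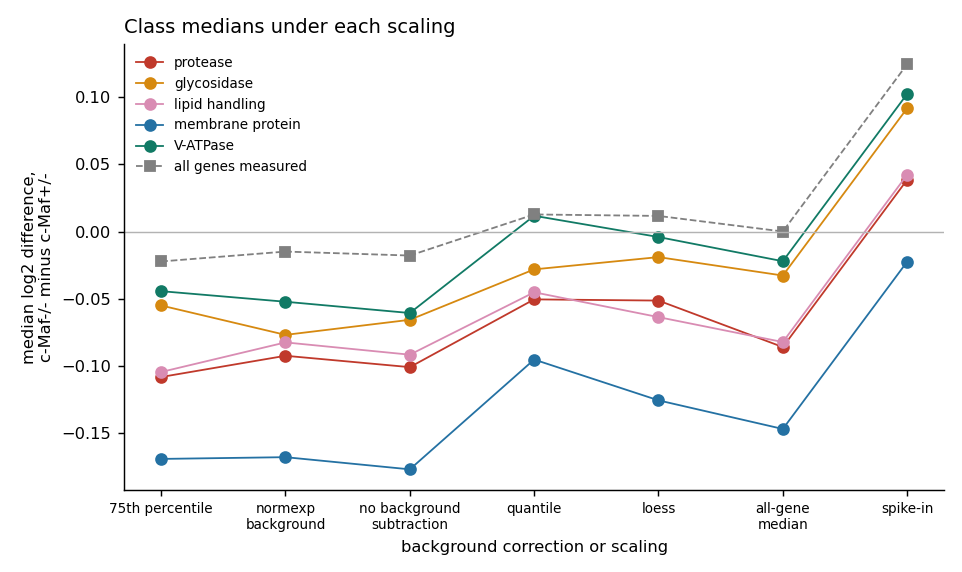
Median log2 difference (c-Maf-/- minus c-Maf+/-, vertical axis) of the 5 larger classes (coloured points) and of all genes measured (grey squares) under each background correction or scaling (horizontal axis). The class medians lie at or below -0.04 in the 75th-percentile setting, and under spike-in scaling all but the membrane proteins (-0.02) lie above 0, below the all-gene median of 0.12.

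How far the probes of a gene and the spots of a probe disagreed gives a spread within these 2 arrays. Spots and probes of an array share its RNA, labelling and hybridisation. Their spread therefore leaves out that between arrays, cultures and animals. Over 227 probes with at least 8 usable spots, the SD of the log2 difference had a median of 0.07. Across 3454 genes with at least 2 used probes, the SD over probes had a median of 0.09 with a 95th percentile of 0.48. In the 12 members with at least 2 used probes the median SD was 0.05 and the highest 0.19, in Ctsc. Among these 12, Cd68, Lamp2, Laptm5, Ctsd, Tfe3, Ctsa, Gaa, Asah1 and Atp6ap1 rest on probes that agreed in sign. The probes disagreed in sign for Ctsc (0.12 and -0.14), Gusb (0.05 and -0.01) and Atp6v1a (0.0018 and -0.09). Ctsl, Lipa, Lyz2, Tfeb, Atp6v0a1 and Atp6v1d each rest on 1 used probe.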

How the data were processed

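Total RNA (50 ng per array, labelled with Cy3) from 1 c-Maf-/- and 1 c-Maf+/- sample was hybridised to Agilent arrays of design 028005 on 1 slide, where each position belongs to 1 genotype. The deposited values are linear spot intensities from Feature Extraction 10.7.3.1 with protocol GE1_107_Sep09, per the file headers, with background subtracted and no normalization between arrays. The deposited 0 or 1 flags for outliers, saturation and signal well above background were used too, and the deposited error intensities gave the error of each log2 difference. Each array had 62976 spots, of which 59305 were not controls.

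Control spots and outlier spots (149 on c-Maf-/-, 136 on c-Maf+/-) were left out, spots of a probe were averaged, and log2 signals were computed here from the deposited intensities minus the array's 75th percentile (a signal of 296 on the c-Maf-/- array, 291 on the other). A gene's value is the mean over probes well above background on both arrays, with at least 50% of a probe's spots flagged so. Of 61 member probes 58 were used. Probe names were updated through RefSeq genes by accession (28026 probes), symbol (3418), older symbol (270) or another accession (103). The remaining 23864 probes matched no RefSeq gene. They entered no gene value and are not part of the 12422 genes measured. Coordinates of probes are mm9, per the file headers, and exon or UTR positions were not assigned. Members, lists and thresholds were chosen with earlier results of these data known. All 46 members are named, with the 3 genes of each related list farthest from 0 and those past 2-fold; other list genes past 0.32 log2, and the marker genes, were named after their values were seen. With 1 array per genotype there was no test, the number of arrays limits the precision, and nothing states that the samples came from several animals. R 4.3.3 with limma 3.58.1 and Python 3.11.15 were used. Only the step from probe values to gene values was tested on simulated data, with known changes added. Background correction, scaling, the error calculation and the motif search were not tested in this way. Alternatives were normexp (offset 50), no background subtraction, quantile, loess, all-gene median and spike-in scaling, no filter on dim probes, the brightest probe, and genes with at least 2 probes.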

Additional observations from a re-analysis of the deposited data

How the results depend on the processing

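No paired analysis was possible because each genotype had 1 array. With normexp background correction 477 genes of all measured were past 1.5-fold lower and 331 higher, and 109 past 2-fold lower and 68 higher, and without background subtraction 389 were past 1.5-fold higher, 124 past 2-fold lower and 82 higher. Members past 1.5-fold higher numbered 2 with quantile, loess or spike-in scaling and 1 with all-gene median centring, and with quantile scaling 19 members were above 0. Spike-in scaling moved most counts: 18 members were below 0 and 28 above, 3 past 0.32 log2 lower and 4 higher, and 0 past 1.5-fold lower. Of all genes it put 1221 past 0.32 log2 lower and 2974 higher, 483 past 1.5-fold lower and 1099 higher, and 140 past 2-fold lower and 270 higher. Its medians were 0.12 for all genes, 0.053 for the members, 0.038 for proteases, 0.092 for glycosidases, 0.042 for lipid handling, -0.022 for membrane proteins and 0.10 for the V-ATPase. In the related lists they were 0.067 for TFE genes, 0.073 for autophagy, 0.017 for cystatins, 0.093 for other V-ATPase subunits, -0.046 for other cathepsins, 0.045 for other hydrolases, 0.0013 for other membrane proteins and 0.10 for sorting. That shift is the scaling's own construction, as the same value is added to every gene. Without the filter on dim probes more genes were tested, and 3892 were past 0.32 log2 lower and 3635 higher, 2070 and 2064 past 1.5-fold, and 871 and 885 past 2-fold. With genes of at least 2 probes fewer were tested: 11 of 12 members were below 0 and 1 above, 1 was past 0.32 log2 lower and 0 higher, 0 were past 1.5-fold lower, and of all genes 479 were past 0.32 log2 lower and 328 higher, 149 and 109 past 1.5-fold, and 32 and 17 past 2-fold. The medians there were -0.16 for other V-ATPase subunits (1 gene) and 0.044 for other hydrolases (6 genes). Among genes of at least 1000 on both arrays, chosen after seeing the data, 687 were past 0.32 log2 lower and 322 higher, 242 and 105 past 1.5-fold, and 44 and 21 past 2-fold.

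Single members changed sign under spike-in scaling (17), quantile (8), loess (5), all-gene median centring (4), the brightest probe (1) and no filter on dim probes (1), and 0 of them under normexp, no background subtraction or, for the 12 members it keeps, at least 2 probes. Besides spike-in scaling, the median turned above 0 for the V-ATPase (0.012) and other V-ATPase subunits (0.0032) with quantile scaling, autophagy (0.0074) with normexp, and other hydrolases and sorting (0.016) with at least 2 probes. Signals near background limit dim genes such as Tfeb, and with 1 array per genotype no value has a replicate check.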
